A study of Mus musculus with 3 samples.

Results

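The nuclear genes for oxidative phosphorylation were taken as the protein-coding genes of GENCODE whose symbols start with Nduf, Uqcr, Cox4, Cox5, Cox6, Cox7, Cox8 or Atp5, together with *Sdha*, *Sdhb*, *Sdhc*, *Sdhd* and *Cyc1*. This rule gave 94 genes of 21925 protein-coding genes in all. The rule holds no measured value, but it was set with earlier results of these data known. Of the 94 genes, 85 encode subunits of a complex or close relatives of them, 8 are the complex I assembly factors whose symbols start with Ndufaf, and 1 is *Atp5s*, a coupling factor of ATP synthase. Ad4BP/SF-1 peaks were listed within 10 kb of 40 of the 94 genes (42.6%, against 23.1% of all protein-coding genes), and 20 of them had a peak at a promoter (21.3%, against 3.36%), led by *Atp5b* and *Cox8a*.

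The binding of Ad4BP/SF-1, the nuclear receptor encoded by *Nr5a1*, had been mapped by chromatin immunoprecipitation and sequencing in mouse Leydig cells, the androgen-producing cells of the testis. The cells came from the testes of male ICR mice aged 9 weeks, were pooled from several animals and were separated on a density gradient. They were then cultured on collagen-coated dishes with vehicle or with cAMP, the second messenger of luteinising hormone. The vehicle library gave a list of 5721 peaks and the cAMP library one of 4025, and the sample of input DNA was left aside. No allele or transgene distinguished the groups, and the dose and duration of the cAMP treatment were not given in the labels. Since neither condition had a replicate, the lists are set side by side without a test. Of 9 genes that define Leydig cells or their steroid synthesis, 4 (*Star*, *Cyp11a1*, *Hsd17b3* and *Nr5a1*) had a peak within 10 kb in each list (44.4%), against 16.8% and 11.4% of genes of the same lengths in the vehicle and cAMP lists. *Hsd3b1*, *Hsd3b6*, *Cyp17a1*, *Insl3* and *Lhcgr* had none. Peaks do not measure expression, so the markers of other cell types could not be read from these lists.

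In oxidative phosphorylation, complexes I and II pass electrons to ubiquinone, complex III passes them to cytochrome c and complex IV to oxygen. Complexes I, III and IV pump protons out of the mitochondrial matrix, and ATP synthase lets them return to make ATP. Most subunits are encoded in the nucleus. In Leydig cells, import of cholesterol and the start of steroid synthesis take place in respiring mitochondria. Ad4BP/SF-1 binds DNA as a monomer at a short motif, here searched in its 4 forms TCAAGGTC, CCAAGGTC, TCAAGGCC and CCAAGGCC on both strands and called the consensus.

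A gene was counted when a peak shared at least 1 bp with its body or the 10 kb on either side. In the vehicle list, 35 of the 94 genes (37.2%) had such a peak, against 19.3% of all protein-coding genes. The cAMP list had 27 (28.7%) against 13.9%, either list had 40 (42.6%) against 23.1%, and both lists had 22 (23.4%) against 10.1%. The genes were short, with a median length of 7419 bp against 17409 bp for all genes. When all genes were weighted to the same lengths in 10 classes, the background was 14.0% for vehicle, 9.40% for cAMP, 16.6% for either list and 6.76% for both. The share of the oxidative phosphorylation genes thus lay above the background of all genes and further above that of genes of the same lengths. No test was attached to these shares, because neighbouring genes can share a peak.

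Promoters were then counted on their own. A promoter peak was one centred within 1 kb of the 5′ end of any protein-coding transcript of the gene. A promoter peak was present at 18 genes (19.1%) in the vehicle list against 2.94% of all genes, and at 15 genes (16.0%) in the cAMP list against 1.67%. In either list there were 20 genes (21.3%) against 3.36%, and in both lists 13 genes (13.8%) against 1.25%. Weighting all genes to the same GC content of the promoter, whose median was 56.0% both in the 94 genes and in all genes, gave 3.19% for the vehicle list and 1.84% for the cAMP list. For 17 of the 20 genes the nearest protein-coding 5′ end to a promoter peak was their own. The other 3, *Ndufb5*, *Ndufs1* and *Ndufs3*, shared the region with a neighbour whose 5′ end was nearer.

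Genes of related mitochondrial processes were counted in the same way. Of 18 enzyme genes of the TCA cycle and the pyruvate dehydrogenase complex, 7 (38.9%) had a peak within 10 kb in either list and 3 (16.7%) had a promoter peak, in both lists. Of 47 assembly factors and other respiratory genes outside the rule, 9 (19.1%) had a peak in either list and 4 (8.51%), *Coa7*, *Cox20*, *Sdhaf4* and *Tmem70*, a promoter peak. Of 78 genes of the mitochondrial ribosome, 15 (19.2%) had a peak and 4 (5.13%) a promoter peak. Among all genes weighted to the lengths of each list, 24.5% had a peak within 10 kb for the TCA cycle list, 19.5% for the assembly list and 17.2% for the ribosomal list. In the cAMP list alone, 4.26% of the assembly list and 7.69% of the ribosomal list had a peak, against 11.4% and 9.82% of genes of the same lengths. At promoters the backgrounds for either list were 3.67%, 3.20% and 3.13%, below the share of each list, while with cAMP alone the ribosomal list had 1.28% against 1.56%. No test was attached to these shares. *Mrpl47* of the ribosomal list and *Ndufb5* carried the same promoter peak.

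**Figure D1:**
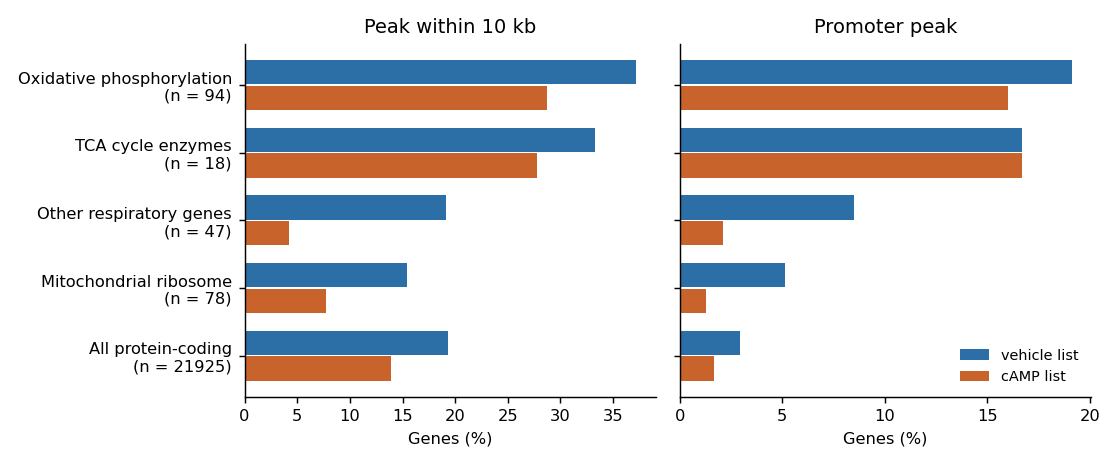
Percent of genes with an Ad4BP/SF-1 peak within 10 kb (left) and with a promoter peak (right), in the vehicle list (blue) and the cAMP list (orange), for the 94 oxidative phosphorylation genes, 3 lists of related genes and all 21925 protein-coding genes. At promoters the oxidative phosphorylation genes reached 19.1% and 16.0%, against 2.94% and 1.67% of all genes.

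The genes were also counted by complex. ATP synthase had a peak within 10 kb at 8 of 16 genes, each of them in both lists, and a promoter peak at 5. Complex I had a peak at 18 of 36 genes, of which 8 were in both lists, and a promoter peak at 8. Complex II had a peak at 2 of 4 genes and complex IV at 9 of 20, with promoter peaks at 1 and 4 genes. Complex III had a peak at only 1 of 9 genes, *Uqcr10*. The Ndufaf assembly factors had a peak at 2 of 8 genes, in the cAMP list only, and *Atp5s* had none. Over all protein-coding genes, 23.1% had a peak within 10 kb in either list and 3.36% a promoter peak. The Ndufaf share of 25.0% was thus near the background within 10 kb and the complex III share of 11.1% below it. At promoters, 12.5% of the Ndufaf genes and 11.1% of the complex III genes had a peak, 1 gene each and above the background. Counts this small do not show that the complexes differ.

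**Figure D2:**
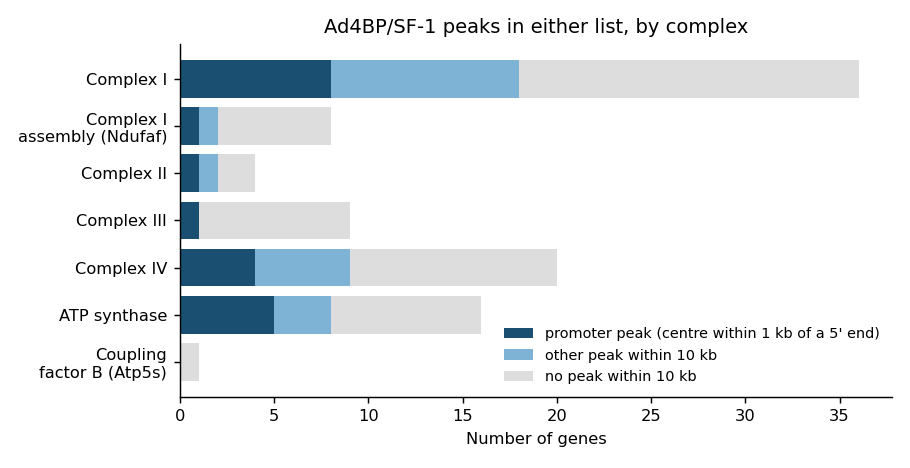
Number of genes of each complex with a promoter peak (dark), with another peak within 10 kb (light) and without a peak within 10 kb (grey), in either list. ATP synthase and complex I reached 8 of 16 and 18 of 36 genes with a peak, and complex III 1 of 9, against 23.1% of all protein-coding genes.

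Among the ATP synthase genes, *Atp5b*, which encodes the catalytic beta subunit, had the strongest peak of the 94 genes. Its promoter peak scored 733 in the vehicle list (chr10:128083108-128083961, mm10), rank 3 of 5721 peaks, and 631 in the cAMP list (chr10:128083065-128083933), rank 5 of 4025. The score is the MACS value, which rises with the significance of the peak and also with the depth of the library, so scores are comparable within a list. Both peaks were centred in intron 1, 261 bp and 226 bp downstream of the 5′ end. The 300 bases at the centre of the vehicle peak held 2 copies of the consensus, 227 bp and 384 bp after the 5′ end, and both read GACCTTGA on the strand of the gene. They are shown because this was the highest-scoring promoter peak of any gene in the vehicle list, with the copies in capitals.
*Atp5b* (chr10:128083384-128083683, plus strand): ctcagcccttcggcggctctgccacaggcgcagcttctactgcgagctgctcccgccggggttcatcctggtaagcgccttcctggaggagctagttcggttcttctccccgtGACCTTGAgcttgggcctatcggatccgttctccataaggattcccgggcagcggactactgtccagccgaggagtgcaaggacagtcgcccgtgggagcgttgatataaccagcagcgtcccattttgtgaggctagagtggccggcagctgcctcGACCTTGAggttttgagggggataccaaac

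Promoter peaks were also present at 4 other ATP synthase genes, all in both lists. *Atp5g3*, 1 of 3 genes for the ring-forming subunit c, had a peak of score 144 with vehicle (chr2:73911014-73911719) and 92.9 with cAMP (chr2:73911037-73911704), centred 40 bp and 44 bp upstream of the 5′ end. The other genes for subunit c, *Atp5g1* and *Atp5g2*, had no peak within 10 kb. *Atp5j*, which encodes coupling factor 6 of the peripheral stalk, had an upstream peak that scored 135 with vehicle (chr16:84836108-84836692) and 161 with cAMP (chr16:84836097-84836530). A further vehicle peak near *Atp5j* (chr16:84834370-84834867, score 118) lay nearer to the 5′ end of *Gabpa*, an ETS factor gene that is transcribed in the opposite direction. *Atp5j2*, which encodes a subunit of the membrane sector, scored 137 (chr5:145190690-145191368) and 53.9 (chr5:145190842-145191259), the latter above only 16.2% of the cAMP list. *Atp5mpl*, which encodes a small membrane subunit, scored 97.7 (chr12:111966488-111967141) and 58.5 (chr12:111966625-111966967). Of these 4 genes, *Atp5j* had the highest score in the cAMP list and *Atp5g3* in the vehicle list.

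Each of these 4 genes had a consensus copy near the centre of the promoter peak. The copy nearest the centre is shown in capitals with its flanks on the strand of the gene, and flanks were kept short where an untranslated region was near. In *Atp5g3* and *Atp5mpl* the copy was on the strand opposite to the gene, and in *Atp5j* and *Atp5j2* on the same strand.
*Atp5g3* (chr2:73911348-73911399, minus strand): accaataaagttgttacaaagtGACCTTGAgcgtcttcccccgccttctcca
*Atp5j* (chr16:84836363-84836414, minus strand): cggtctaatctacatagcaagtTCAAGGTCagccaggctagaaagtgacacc
*Atp5j2* (chr5:145190960-145191011, minus strand): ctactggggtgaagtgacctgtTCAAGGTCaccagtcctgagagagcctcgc
*Atp5mpl* (chr12:111966787-111966816, minus strand): cgatacacgctGACCTTGGgtcagcccctg

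Of the other ATP synthase genes, *Atp5o*, *Atp5a1* and *Atp5d* had peaks that were farther away, and 8 had no peak within 10 kb. *Atp5o*, which encodes the subunit that links the stalk to the catalytic head, had a peak centred 4815 bp upstream of its 5′ end in the vehicle list (chr16:91936125-91936880, score 224) and 4794 bp upstream in the cAMP list (chr16:91936136-91936827, score 96.4). GENCODE holds a further *Atp5o* entry that runs on over neighbouring genes (chr16:91684398-91926982), and 1 vehicle and 3 cAMP peaks within that entry lay nearest to *Itsn1*, with centres 10.7 kb or more from its 5′ end. The core gene (chr16:91925214-91931687) kept its upstream peak in both lists without them. *Atp5a1*, for the alpha subunit, had a peak 9.21 kb downstream of its 5′ end in the vehicle list (score 193). In the cAMP list it lay 9.17 kb downstream (score 111). Both peaks began just beyond the 3′ end of *Atp5a1*, and the nearest protein-coding 5′ end was that of *Pstpip2*. *Atp5d*, for the delta subunit of the central stalk, had 4 vehicle and 2 cAMP peaks within 10 kb. All of them were nearer to *Midn* or, in 1 case, to *Cbarp*, and 2 of them were in both lists. The farther one scored 172 with cAMP (chr10:80151742-80152294) and 112 with vehicle (chr10:80151670-80152316), and the nearer one 86.3 with cAMP (chr10:80148286-80148869) and 128 with vehicle (chr10:80148305-80148940).

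Complex I genes were described by their part in the enzyme, since 7 genes encode the core subunits that carry out electron transfer and 29 the accessory subunits around them. Of the 7 core genes, 3 had a promoter peak, in the vehicle list only, and the other 4 had no peak within 10 kb. *Ndufs1*, which encodes the largest iron-sulphur subunit, scored 66.1 (chr1:63176725-63177339), with the 5′ end of *Eef1b2* nearer to the peak. *Ndufs3* scored 62.1 (chr2:90904498-90905003) in a region shared with *Kbtbd4*, and it was the only promoter peak of the 94 genes without a consensus copy. *Ndufs7*, whose product holds the iron-sulphur cluster next to ubiquinone, scored 57.0 (chr10:80249204-80249702), and 2 further vehicle peaks of 95.3 and 98.6 lay nearer to *Gamt*. All 3 core promoter peaks scored below the vehicle median of 72.4, and no peak of either list scored below 50, a stricter floor than the p-value threshold stated in the methods. A missing cAMP peak therefore cannot be told apart from a weaker one that was not listed.

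Among the accessory subunit genes, 5 had a promoter peak. *Ndufb6* had the strongest one of complex I in the vehicle list, and it scored 257 with vehicle (chr4:40279114-40279809) and 98.4 with cAMP (chr4:40279072-40279661). *Ndufb5* scored 175 (chr3:32736889-32737622) and 103 (chr3:32736999-32737562). *Ndufa10* scored 94.0 (chr1:92473425-92474059) and 96.6 (chr1:92473393-92473912). *Ndufa12* had a promoter peak for vehicle only, scoring 71.9 (chr10:94199125-94199604). *Ndufa2* had one for cAMP only, scoring 79.7, in intron 1 and 198 bp downstream of the 5′ end. The assembly factor gene *Ndufaf6* had a promoter peak for cAMP only, scoring 53.5 (chr4:11075922-11076297).

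For the complex I genes and *Ndufaf6*, the consensus copy nearest the centre of the promoter peak is given on the strand of the gene, in capitals, to let the forms be compared. The sequence of *Ndufa2* and an upstream copy in the *Ndufa10* peak are not shown. In *Ndufa12*, *Ndufb5* and *Ndufs7* the copy read GACCTTGG, the complement of CCAAGGTC, within intron 1. *Ndufb6* and *Ndufs1* had TCAAGGTC on the strand of the gene.
*Ndufb6* (chr4:40279385-40279414, minus strand): ttccaggcgccTCAAGGTCgctttgcggag
*Ndufb5* (chr3:32737237-32737288, plus strand): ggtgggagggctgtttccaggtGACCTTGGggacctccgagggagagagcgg
*Ndufa10* (chr1:92473717-92473746, minus strand): ggcgaagtcatGGCCTTGAggttgctgaga
*Ndufa12* (chr10:94199388-94199439, plus strand): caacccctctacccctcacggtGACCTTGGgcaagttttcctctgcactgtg
*Ndufs1* (chr1:63177035-63177064, minus strand): gaggttaaaggTCAAGGTCcgttcctagtc
*Ndufs7* (chr10:80249533-80249584, plus strand): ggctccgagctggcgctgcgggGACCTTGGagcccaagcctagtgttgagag
*Ndufaf6* (chr4:11076114-11076165, minus strand): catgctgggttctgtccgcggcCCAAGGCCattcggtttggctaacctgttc

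Other complex I genes had peaks outside promoters. *Ndufb7*, an accessory subunit gene, had the highest-scoring one, 266 in the cAMP list (chr8:83577325-83577855) and 199 in the vehicle list (chr8:83577193-83577920), and the 5′ end of *Tecr* was nearer to it than that of *Ndufb7*. *Ndufb2* had a peak in intron 1 in both lists (chr6:39595698-39596223 and chr6:39595814-39596167), with scores of 84.5 and 56.8. *Ndufc2* scored 144 and 89.5 near *Thrsp*, and *Ndufa6* 79.9 and 72.9 near *Smdt1*, in the vehicle and the cAMP list. Peaks of the vehicle list only lay in intron 1 of *Ndufb4* (score 51.6) and near *Ndufb8* (86.7, 208 bp from the 5′ end of *Hif1an*), *Ndufa8* (54.1, near *Morn5*) and *Ndufa3* (64.2, near *Oscar*). In the cAMP list only, *Ndufa13* had a peak in intron 2 (62.4, nearer to *Yjefn3*) and the assembly factor gene *Ndufaf2* had one in intron 1 (69.4) and one upstream (57.3, nearer to *Ercc8*). *Ndufc1* counted in both lists although its peaks were different ones, a vehicle peak 1411 bp from the 5′ end of *Mgarp* (score 73.1) and a cAMP peak 42 bp from that of *Naa15* (score 56.0). Of these complex I peaks outside promoters, those of *Ndufb2* and *Ndufb4* and the intronic one of *Ndufaf2* were nearest to the 5′ end of the oxidative phosphorylation gene itself.

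Sequences are shown for peaks outside promoters of *Ndufb7* (cAMP), *Atp5o* (vehicle) and *Atp5d* (cAMP), the 3 genes with the highest scores there apart from *Atp5a1*, whose score of 193 was above that of *Atp5d* and whose sequence is not shown. The copy nearest the centre is in capitals, on the strand of the named gene.
*Ndufb7* (chr8:83577595-83577646, plus strand): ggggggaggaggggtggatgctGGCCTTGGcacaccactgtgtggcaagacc
*Atp5o* (chr16:91936447-91936498, minus strand): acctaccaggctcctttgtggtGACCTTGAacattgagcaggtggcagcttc
*Atp5d* (chr10:80152007-80152058, plus strand): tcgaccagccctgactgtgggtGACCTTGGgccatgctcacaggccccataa

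In complex II, the peaks lay at *Sdhd*, which encodes a membrane anchor, and *Sdhb*, which encodes the iron-sulphur subunit. The promoter peak of *Sdhd* was centred 20 bp downstream of the 5′ end with vehicle (chr9:50603456-50604129, score 121) and 64 bp with cAMP (chr9:50603570-50603926, score 56.3). A further vehicle peak of *Sdhd* lay in intron 1 (chr9:50601995-50602424, score 66.4). The peak of *Sdhb* was in intron 2 and scored 87.9 with vehicle (chr4:140967739-140968202) and 111 with cAMP (chr4:140967771-140968215). *Sdha* and *Sdhc* had no peak within 10 kb. In complex III, *Uqcr10*, which encodes a small subunit, had a promoter peak that scored 94.6 in the vehicle list (chr11:4703985-4704411) and 68.7 in the cAMP list (chr11:4703861-4704438). The genes for its catalytic subunits and core proteins, *Cyc1*, *Uqcrfs1*, *Uqcrc1* and *Uqcrc2*, were among the 8 without a peak.

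The copies in the *Sdhd* and *Uqcr10* promoter peaks both lay on the strand opposite to the gene, 3 bp and 209 bp after the 5′ end, and are printed on the strand of the gene.
*Sdhd* (chr9:50603794-50603823, minus strand): ggttgtagagtGACCTTGAgccctcgaaag
*Uqcr10* (chr11:4704107-4704158, minus strand): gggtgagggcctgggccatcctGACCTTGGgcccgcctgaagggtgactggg

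Complex IV has several subunits with ubiquitous and tissue-specific isoforms, so its genes were described by isoform. *Cox8a*, the ubiquitous form of subunit VIII, had the highest score after *Atp5b*, with 554 for vehicle (chr19:7217168-7217988), rank 16, and 390 for cAMP (chr19:7217192-7217804), rank 23. Those 2 genes held the only peaks of the 94 genes in the top 1% of either list. The muscle isoform *Cox8b* had a single vehicle peak 8354 bp upstream of its 5′ end (chr7:140908551-140909050, score 103), and *Cox8c* had none.

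*Cox4i1*, the ubiquitous form of subunit IV, had a promoter peak in both lists, with scores of 63.8 (chr8:120668243-120668781) and 105 (chr8:120668181-120668811). The isoform *Cox4i2* had a vehicle peak 16.6 kb downstream of its 5′ end (chr2:152771539-152771831, score 84.3). *Cox6a1* had a promoter peak in both lists, with scores of 78.4 (chr5:115348441-115349098) and 61.9 (chr5:115348486-115349004), whereas its muscle isoform *Cox6a2* had no peak. *Cox5b* had a promoter peak for vehicle only, scoring 66.7 (chr1:36691547-36691974), and *Cox5a* a vehicle peak in intron 1 (chr9:57528605-57528971, score 56.3). The muscle isoform *Cox7a1* had a vehicle peak (chr7:30194101-30194731, score 94.6) that was 632 bp from the 5′ end of *Capns1*, and its partner *Cox7a2* had none. *Cox7a2l*, whose product joins complexes III and IV into supercomplexes, had a cAMP peak in intron 1 (chr17:83507481-83507890, score 88.4). *Cox6b1*, *Cox6b2*, *Cox7b* and *Cox7b2* had no peak within 10 kb. The 3 complex IV genes with a promoter peak in both lists, *Cox4i1*, *Cox6a1* and *Cox8a*, were each the ubiquitous isoform. This did not extend to every isoform pair, since *Cox7a1* had a peak and *Cox7a2* none, and the *Cox6b* and *Cox7b* forms had none.

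The copies nearest the centre of the complex IV promoter peaks shared a form. All 4 read GACCTTGG on the strand of the gene, which is CCAAGGTC on the other strand, and are shown with that form in capitals.
*Cox8a* (chr19:7217535-7217564, minus strand): cttgactccctGACCTTGGactggtcctcg
*Cox4i1* (chr8:120668463-120668492, plus strand): agcggctcggtGACCTTGGggcgcccgctt
*Cox6a1* (chr5:115348729-115348780, minus strand): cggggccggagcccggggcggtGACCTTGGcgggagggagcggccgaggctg
*Cox5b* (chr1:36691881-36691932, plus strand): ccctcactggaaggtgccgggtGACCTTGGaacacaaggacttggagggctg

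Across the genes, the promoter peaks were compared by position and content. Their centres lay downstream of the nearest own 5′ end in 14 of 19 vehicle peaks, with a median of 77 bp and a range from -775 to 482 bp, and in 13 of 15 cAMP peaks, with a median of 118 bp. Measured against the nearest protein-coding 5′ end of any gene, 68.4% of the vehicle promoter peaks (95% exact Clopper-Pearson interval 43.4 to 87.4%) and 80.0% of the cAMP ones (51.9 to 95.7%) lay downstream, against 45.9% and 45.1% of the promoter peaks of other genes. The intervals cover counting error only, and that of the vehicle list includes the value of the other genes. The median promoter peak of the 94 genes scored above 72.2% of the vehicle list and 73.2% of the cAMP list, and the median promoter peak of other genes above 57.1% and 57.0%.

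**Figure D3:**
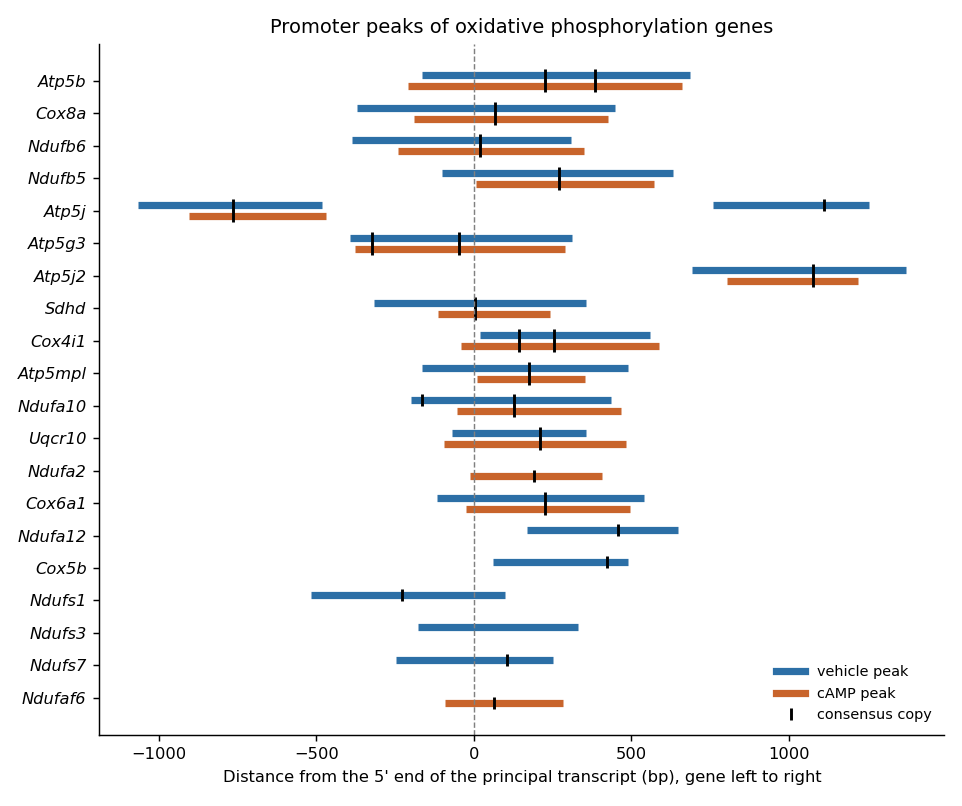
Promoter peaks of the 20 genes that had one, as spans relative to the 5′ end of the principal transcript (bp, dashed line at 0), in the vehicle list (blue) and the cAMP list (orange), with consensus copies as black marks and genes ordered by their highest score. Most spans cover the 5′ end, copies lie mainly to its right, and *Ndufs3* has no copy.

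The consensus was frequent in the peaks. It was present in 38 of 43 vehicle peaks within 10 kb of the genes (88.4%, 74.9 to 96.1%) and in 30 of 32 cAMP peaks (93.8%, 79.2 to 99.2%), against 80.4% and 77.1% of all peaks, of which the former lies within its interval. Among promoter peaks it was present in 18 of 19 (74.0 to 99.9%) and 15 of 15 (78.2 to 100%), and the 81.7% and 85.4% of the promoter peaks of other genes lay within these intervals. The promoter peaks of both lists together held 24 distinct copies, of which 10 were CCAAGGTC, 9 TCAAGGTC, 3 TCAAGGCC and 2 CCAAGGCC. Of the 24 copies, 16 lay on the strand opposite to the gene, 19 lay downstream of the principal 5′ end and 13 were in intron 1. Copies in the promoter peaks of other genes were not counted by form, strand or place, so these counts have no background.

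Consensus copies were also common near the 5′ ends of the genes irrespective of peaks. The first 500 bp after the principal 5′ end held a copy in 33 of the 94 genes (35.1%), against 10.0% of all protein-coding genes, and the window from 250 bp before to 50 bp after the 5′ end held one in 12.8%, against 5.86%. Of the 33 genes with a copy in the first 500 bp, 15 (45.5%) had a promoter peak, and of the 61 without a copy 5 (8.20%) had one. Among all protein-coding genes the same shares were 9.02% and 2.75%. These shares carry no test. The 18 genes with a copy and no promoter peak included *Ndufs8*, *Ndufv2*, *Ndufs4*, *Cox6c*, *Cox6b1*, *Uqcrh* and *Uqcrc2*, none of which had a peak within 10 kb. A copy is a match of letters that does not show binding or which factor would bind, so these shares are not particular to Ad4BP/SF-1. A missing peak at this depth does not show the absence of binding.

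**Figure D4:**
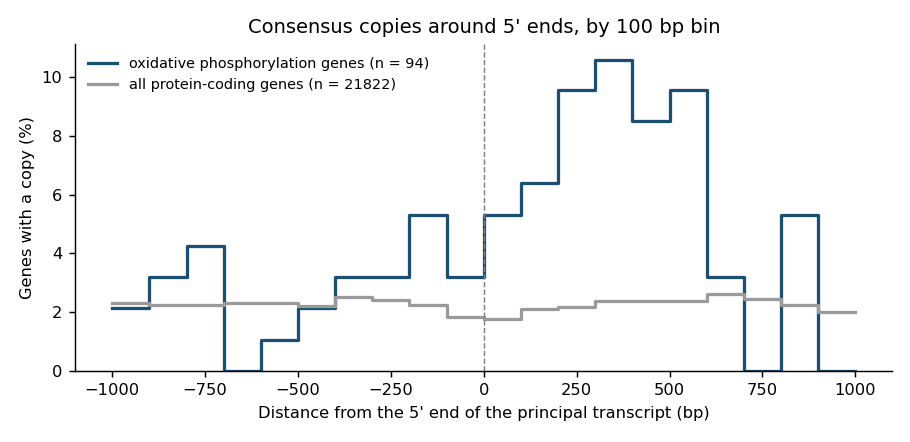
Percent of genes with a consensus copy in each 100 bp bin from 1000 bp before to 1000 bp after the 5′ end of the principal transcript, for the 94 oxidative phosphorylation genes (blue) and all protein-coding genes (grey). In the bins from 0 to 600 bp the former lie between 5.32% and 10.6% and the latter between 1.75% and 2.39%.

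Both lists were then set side by side at these genes. Peaks in the vehicle list were overlapped by a cAMP peak in 23 of 43 cases (53.5%, 37.7 to 68.8%), against 37.9% of all vehicle peaks, and cAMP peaks by a vehicle peak in 23 of 32 cases (71.9%, 53.3 to 86.3%), against 53.8% of all cAMP peaks. Both intervals include the value over all peaks. At promoters, 13 of 19 vehicle peaks were overlapped (68.4%, 43.4 to 87.4%), against 41.2% of the promoter peaks of other genes. Of the cAMP promoter peaks 13 of 15 were overlapped (86.7%, 59.5 to 98.3%), an interval that includes the 73.7% of other genes. Each of the 13 pairs of overlapping promoter peaks had at least 1 consensus copy in common. The vehicle score was the higher in 16 of 23 pairs (69.6%), against 61.1% of all 2171 overlapping pairs, and the median ratio of the vehicle to the cAMP score was 1.42 against 1.14. Since scores rise with depth, these ratios do not compare binding between the conditions. The ratio ranged from 0.608 at the *Cox4i1* promoter to 2.61 at that of *Ndufb6*. Promoter peaks were listed for 5 genes in the vehicle list only (*Cox5b*, *Ndufa12*, *Ndufs1*, *Ndufs3* and *Ndufs7*) and for 2 in the cAMP list only (*Ndufa2* and *Ndufaf6*). Of the 20 genes with a promoter peak, 13 thus had one under both conditions. Among all protein-coding genes this held for 273 of 737, with 644 counted for vehicle and 366 for cAMP. Promoter peaks under a single condition were therefore not particular to the oxidative phosphorylation genes. The vehicle list is also the longer, and an effect of cAMP and a difference in library depth cannot be told apart.

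**Figure D5:**
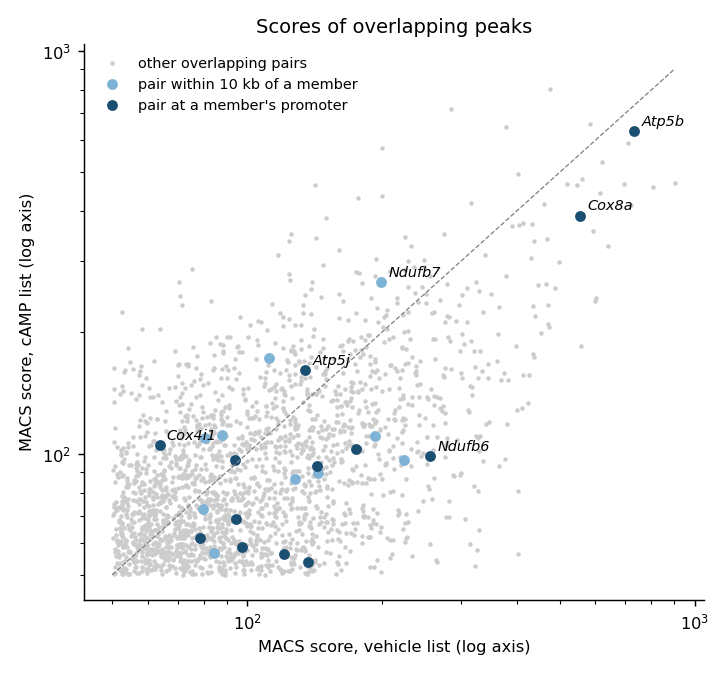
MACS scores of overlapping peaks in the vehicle list (x axis) and the cAMP list (y axis), both on log axes, for pairs at the promoters of the oxidative phosphorylation genes (dark blue), other pairs within 10 kb of them (light blue) and all other pairs (grey), with equal scores on the dashed line. *Atp5b* and *Cox8a* lie at the upper right, and 16 of the 23 pairs lie below the line.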

How the data were processed

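Ad4BP/SF-1 peaks of 1 vehicle and 1 cAMP library were analysed. The authors mapped reads to mm10 with Bowtie (0.12.8 per the submitters' notes), discarded those with several positions, and ran MACS to call peaks. The deposited lists hold positions and the authors' MACS score, 10 times the negative log10 of the p-value, and no read numbers, so depth is unknown. Leaving out reads with several positions can hide peaks where a gene resembles its pseudogenes.

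Overlaps with GENCODE M21 genes, promoter peaks and consensus copies were computed with Python 3.11.15, pandas 2.3.3 and pysam 0.24.0 on the mm10 sequence of RefSeq, after testing on simulated data. GENCODE entries of 1 symbol that overlap were joined. Backgrounds were weighted to the same gene lengths or promoter GC in 10 classes. Shares have exact Clopper-Pearson intervals (scipy 1.17.1), for counting error only. Every gene with a peak within 10 kb was named, and others only for their complex, isoform or consensus copy. Complexes were assigned by symbol, with *Ndufa4* and *Ndufa4l2* in complex IV. The genes, lists and windows were chosen with earlier results of these data known. Coordinates count from 1.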

Additional observations from a re-analysis of the deposited data

How the results depend on the processing

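With 1 library per condition, no library could be left out, and no paired analysis was possible because each group had 1 sample. Widening the window to 50 kb gave 56 vehicle genes, 45 cAMP genes, 61 in either list and 40 in both, while the share in either list was then 64.9% against 43.1% of all genes. The gene body alone gave 23 genes in the vehicle list, and 29.8% in either list against 15.4% of all genes. Requiring a score of at least 75 gave 16 genes in the cAMP list and 13 in both, and the share of all genes within 10 kb was not computed at that score. A floor of 100 left 14, 10, 16 and 8 genes in the vehicle, cAMP, either and both lists. The 16 in either list were 17.0% of the genes, against 7.82% of all genes. For the windows and the score of 100, the share of all genes was computed for either list only. The counts of single lists and of both lists at these settings therefore have no background to be read against. At scores of at least 100, 9 of the 94 genes had a promoter peak, and 1.06% of all protein-coding genes had one. Counting only peaks whose nearest 5′ end was the gene's own gave 22 genes in the vehicle list (23.4% against 13.7% of all genes) and 26 in either (27.7% against 16.7%). The share of vehicle peaks with the consensus was 74.4% in the central 200 bp (73.0% of all peaks), 96.6% at scores of at least 75 (85.6%) and 100% at 100 (87.5%), and the cAMP share was 100% at scores of at least 100 (92.0%). At scores of at least 75 the cAMP share was 90.0% against 89.8% of all peaks, and in the central 200 bp it was 90.6% against 70.7%. Without the readthrough entry of *Atp5o*, an alternative chosen after seeing the data, the cAMP share was also 100%. The unknown depth limits each count, since weaker peaks enter a list as depth rises.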

Other observations

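Other promoter motifs of respiratory genes were counted in the first 500 bp after the 5′ end, on both strands. The core of YY1, AAGATGGC, was present in 18 of the 94 oxidative phosphorylation genes (19.1%) against 4.70% of all genes, and the NRF1 core GCGCATGC in 9 (9.57%) against 1.71%. The ETS core CCGGAAGT was present in 8 (8.51%) against 3.05%, and the cAMP response element TGACGTCA in 4 (4.26%) against 0.843%. The NRF1 core was in none of the 20 genes with a promoter peak and in 9 of the 74 without one (12.2%), and the YY1 core in 3 (15%) and 15 (20.3%). The ETS core was in 3 of the 20 (15%) and 5 of the 74 (6.76%), and the cAMP response element in 2 (10%) and 2 (2.70%). In the window from 250 bp before to 50 bp after the 5′ end, the YY1 core was in 10.6% of the 94 genes against 3.11% of all genes and the NRF1 core in 10.6% against 3.72%. There the ETS core (6.38% against 5.03%) and the cAMP response element (4.26% against 2.47%) were closer to the background. The NRF1 core was in 1 of the 20 and in 9 of the 74 (12.2%) in that window. These are matches of letters, they were not tested, and nothing about the factors follows from them.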
